A study of Homo sapiens with 9 samples.

Results

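The transcription factors PRRX1, SNAI1, SNAI2, TWIST1, ZEB1, ZEB2, RUNX1, RUNX2, MEIS1 and MEIS2 were followed by RNA sequencing in LAN5 cells, an established human neuroblastoma line with an amplified MYCN gene. They were taken by symbol from the deposited table as factors linked to the mesenchymal state, and all 10 were among its 25084 genes. The cells had been nucleofected (electroporated) with a small interfering RNA, a short RNA that directs the breakdown of a matching transcript, and were harvested 72 h later. Each of the 3 groups held 3 libraries. The first received a control siRNA and is called siCTR, the second an siRNA against MYCN (labelled siMYCN_2, here siMYCN) and the third an siRNA against HAND2 (labelled siHAND2_3, here siHAND2). All groups shared the line, the growth medium and the transfection, and each target was lowered with a single siRNA, so that effects of the target and of that siRNA's sequence cannot be told apart. The labels do not say whether the replicates were separate cultures, so the p-values measure the spread between these libraries, which may be technical.

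Neuroblastoma cells can take up a noradrenergic identity, close to that of sympathetic neuroblasts, or a mesenchymal identity that resembles neural crest and stromal cells. Factors such as PRRX1, SNAI2 and RUNX1 are known from mesenchymal neuroblastoma cells, whereas MYCN and HAND2 belong to the noradrenergic programme. The 10 genes are not all of one kind. The zinc finger factors SNAI1, SNAI2, ZEB1 and ZEB2 repress E-cadherin and other epithelial genes, and TWIST1 is a helix-loop-helix factor of the same class as HAND2. PRRX1 is a homeobox factor of limb and skull mesenchyme, RUNX1 and RUNX2 bind DNA together with CBFB, and MEIS1 and MEIS2 are homeobox factors that pair with PBX proteins. Several of them, TWIST1, ZEB2, MEIS1 and MEIS2 among them, are also used by normal neural crest and sympathetic cells, so a transcript of these genes does not by itself mark a mesenchymal cell.

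The libraries held about 21.1 to 32.7 M reads assigned to genes, as read from the step between low values, and no batch or date was given. The values are CPM, reads of a gene scaled to a common library total. The targeted transcripts were lower in their own groups: MYCN was at 70.0% of its siCTR mean in siMYCN and HAND2 at 54.2% in siHAND2. MYCN was also at 49.6% of its siCTR mean in siHAND2, below every siMYCN library. A factor that moves in siHAND2 therefore moves in cells in which both transcripts are lower. HAND2 in turn was at 114% of its siCTR mean in siMYCN and was called higher there (0.19 on the log2 scale, limma adjusted p = 0.00183). In bulk RNA, fewer cells that express a gene and less RNA per cell cannot be told apart.

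Markers of the cell's identity were read beside the factors. The 12 neuroblastoma markers, chosen as genes of sympathetic neuroblasts, were all tested. Their summed level ranged from 2561 to 2696 CPM in siCTR, from 3252 to 3370 in siMYCN (10 called higher by the test described below) and from 2751 to 2885 in siHAND2 (4 called higher and 4 lower). On the log2 scale, DBH (-1.01), TH (-0.70), SLC6A2 (-0.42) and DDC (-0.25) were lower in siHAND2. STMN2 (0.95), GAP43 (0.77), ISL1 (0.63) and GATA2 (0.30) were higher there. Of 10 fibroblast markers 9 were measured, and their sum ranged from 289 to 293 CPM in siCTR, from 348 to 350.2 in siMYCN and from 622 to 704 in siHAND2. Of the 7 that could be tested, 6 were higher in siMYCN, and 6 were higher and 1 lower in siHAND2. The marker that fell was THY1, from a mean of 65.4 CPM in siCTR to 56.8 CPM in siHAND2 (-0.20, limma adjusted p = 0.0270). DCN was among the markers higher in both knockdowns. It averaged 0.431 CPM in siCTR and reached the 1 CPM needed for a test in knockdown libraries alone. Its place among the tested markers therefore depended on its being high there. Over all genes tested, 24.5% were called higher and 11.4% lower in siMYCN, and 18.1% higher and 11.8% lower in siHAND2. The matrix genes LUM (group means of 9.15, 17.2 and 54.7 CPM in siCTR, siMYCN and siHAND2) and DCN (0.431, 1.30 and 11.02 CPM) were highest in siHAND2. Of the collagen I genes, COL1A2 had means of 1.66, 4.42 and 15.9 CPM, and COL1A1, too low to be tested, had 0.720, 0.507 and 0.363 CPM. PDGFRA, at a mean of 121 CPM in siCTR and 341 CPM in siHAND2, and PDGFRB made up most of the fibroblast sum. The 4 leukocyte markers in the table summed to less than 1 CPM in every library and the 6 endothelial markers to 0.887 to 2.03 CPM. Of the Schwann cell markers, SOX10 had a mean of 0.359 CPM in siCTR and 0.457 CPM in siHAND2, and the summed level, 98.0 to 106 CPM in siCTR, 152 to 157 in siMYCN and 35.0 to 36.8 in siHAND2, came almost wholly from PMP22. PMP22 was called higher in siMYCN (0.59 on the log2 scale, limma adjusted p = 1.10e-07) and lower in siHAND2 (-1.56, adjusted p = 8.26e-13). The part of these differences in the results below was not tested.

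Levels were first compared between the 10 factors within siCTR, per kilobase of merged exons, since a longer transcript yields more reads. TWIST1 stood highest at 61.2 ± 1.80 CPM per kb (SD, n = 3 libraries, as for all means below). MEIS2 (23.3 ± 0.882), MEIS1 (18.1 ± 0.760) and ZEB1 (15.9 ± 0.701 CPM per kb) followed. SNAI2 lay at 6.77 ± 0.919, SNAI1 at 2.03 ± 0.390 and ZEB2 at 1.46 ± 0.0701 CPM per kb. RUNX1 (0.278 ± 0.0647), PRRX1 (0.0854 ± 0.0130) and RUNX2 (0.0400 ± 0.00608 CPM per kb) closed the order. In siCTR each neighbouring pair was apart in all 3 libraries. In siHAND2, ZEB2 rose to 2.45 ± 0.109 CPM per kb and overlapped SNAI1, and RUNX2 (0.138 ± 0.0114) stood above RUNX1 (0.122 ± 0.0189 CPM per kb), with overlapping libraries. In siMYCN, SNAI1 overlapped ZEB2 and RUNX2 overlapped PRRX1. The exon lengths come from another annotation than the one the reads were counted on, so the order holds for those lengths. They merge the exons of all transcripts of a gene, 26151 bases for ZEB2 and 1705 for SNAI1. Before division by length ZEB2 had 38.2 CPM and SNAI1 3.45 CPM in siCTR, so the order of this pair depends on the lengths.

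**Figure D1:**
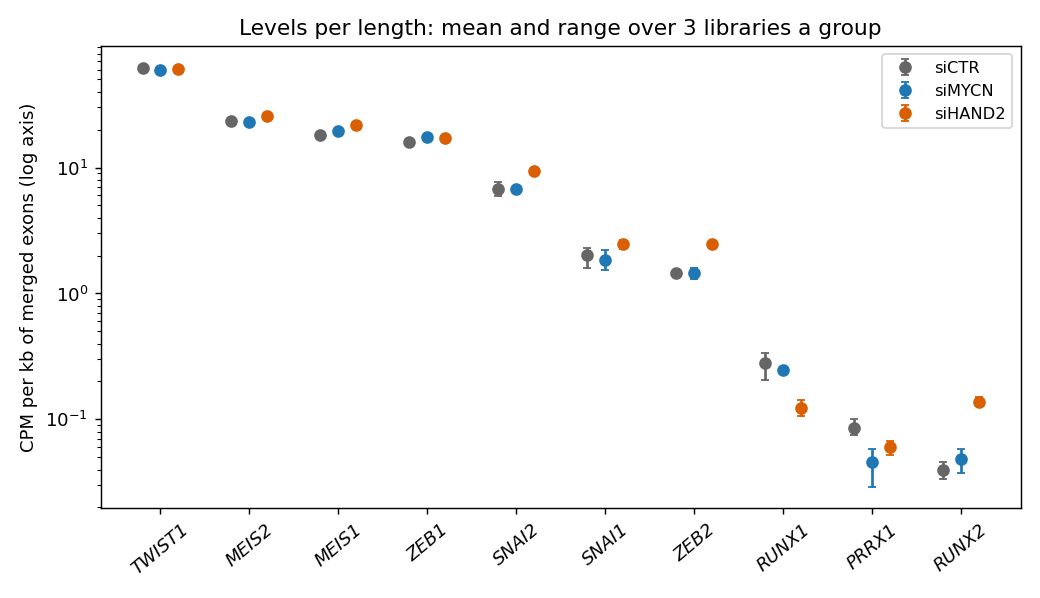
Levels per length of the 10 factors: CPM per kilobase of merged exons on a log axis, mean (point) and range (bar) over the 3 libraries of each siRNA group. TWIST1 stands highest near 61 CPM per kb in all groups, and RUNX1 and RUNX2 trade places at the low end in siHAND2.

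The comparison of siHAND2 with siCTR asked which of these factors moved when HAND2 was lowered. SNAI2, ZEB2, RUNX2, MEIS1 and MEIS2 rose and RUNX1 fell, while TWIST1, ZEB1 and SNAI1 did not pass the test and PRRX1 was too low to be tested. ZEB2 rose to 168% of its siCTR mean and RUNX1 fell to 43.9% of it. Changes are differences of log2(CPM + 1) between group means, which understate the change of genes near 1 CPM, tested with limma over all genes and called at a Benjamini-Hochberg adjusted p under 0.05. Of the 9 factors that could be tested 6 were called, beside 29.9% of all 14495 genes tested: 5 higher, beside 18.1%, and 1 lower, beside 11.8%. The siHAND2 and siCTR libraries did not overlap for 7 of the 9, the called 6 and ZEB1, beside 42.4% of all genes tested. RUNX2 passed the filter on low values (at least 1 CPM in at least 3 libraries) through its siHAND2 libraries alone. Its place among the tested factors, and its lack of overlap, therefore already depended on its being high there. Without RUNX2, 5 of the other 8 tested factors were called, 4 higher and 1 lower. Of all tested genes called in this comparison 60.6% were higher. That share was 47.0% with library totals rescaled by median ratios and 47.8% with quantiles made equal, and the 6 factors kept their direction and call under both scalings.

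**Figure D2:**
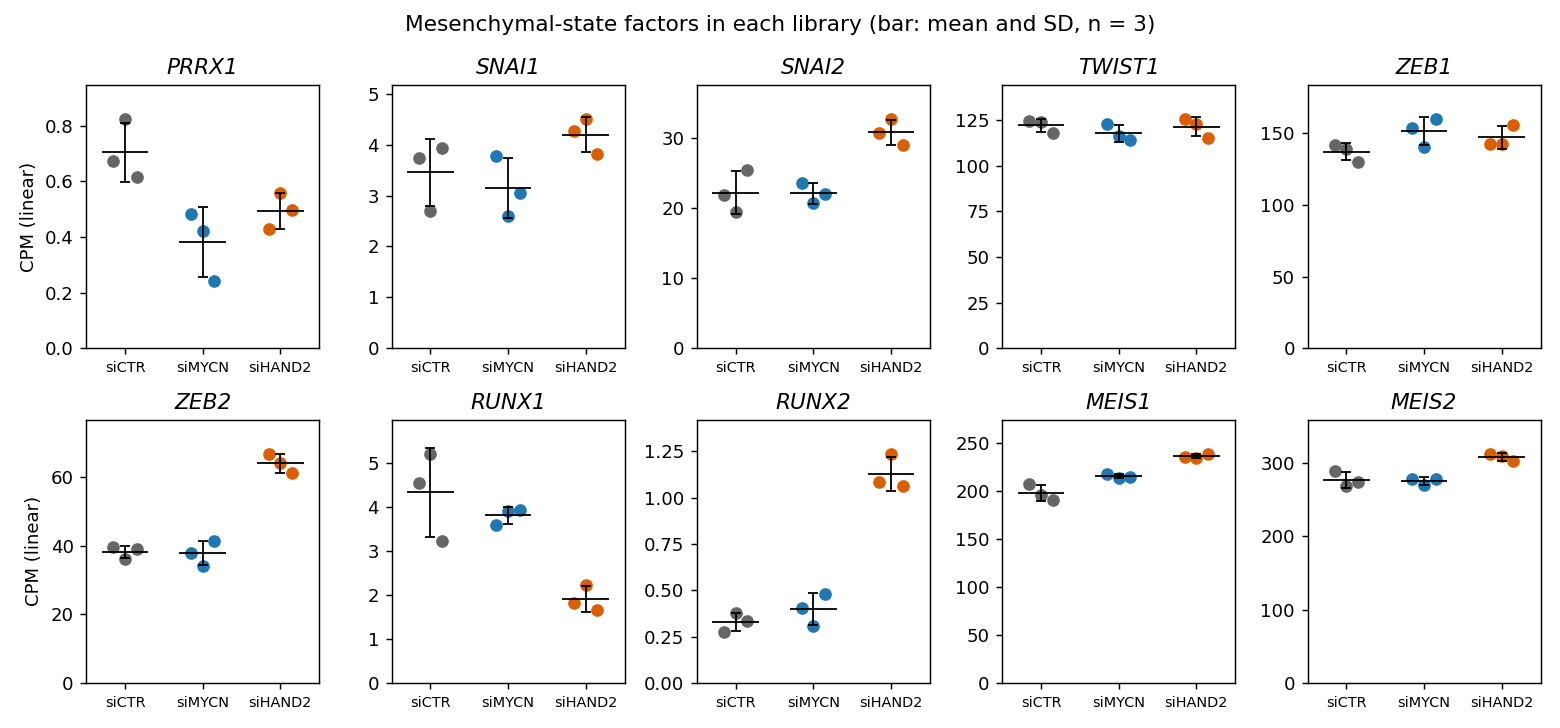
CPM of each factor in every library on linear axes from 0, with 1 point per library and the mean and SD of each group (n = 3) as bars. The siHAND2 points of ZEB2, SNAI2, RUNX2, MEIS1 and MEIS2 lie above, and those of RUNX1 below, all siCTR and siMYCN points.

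The comparison of siMYCN with siCTR asked the same of MYCN. MEIS1 was the single factor called, and it was higher. The share, 1 of 9 tested factors, stood beside 35.9% of all genes tested, and beside 24.5% called higher. MEIS1 was also the single tested factor whose siMYCN and siCTR libraries did not overlap, beside 49.5% of all genes, and 33.4% with siMYCN above. The MEIS1 call was not kept under either rescaling. Of all genes called, 68.3% were higher, but 51.1% under the median-ratio and 49.3% under the quantile scaling. The direct comparison of siHAND2 with siMYCN tested the difference between the knockdowns. It called the same 6 factors as siHAND2 against siCTR, in the same directions, beside 26.9% of all genes: 5 higher, beside 11.4%, and 1 lower, beside 15.5%. Without RUNX2 the counts were 4 higher and 1 lower of 8. Libraries of the knockdowns did not overlap for 7 of the 9, these 6 and SNAI1, beside 38.7% of all genes. For RUNX2 the lack of overlap followed from its passing the filter through siHAND2 alone. HAND2 itself was higher in siMYCN than in siCTR. It differed by -1.07 in siHAND2 against siMYCN and by -0.88 in siHAND2 against siCTR. Both comparisons use the siHAND2 libraries, and those against siCTR share the siCTR libraries, so the comparisons are not independent.

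**Figure D3:**
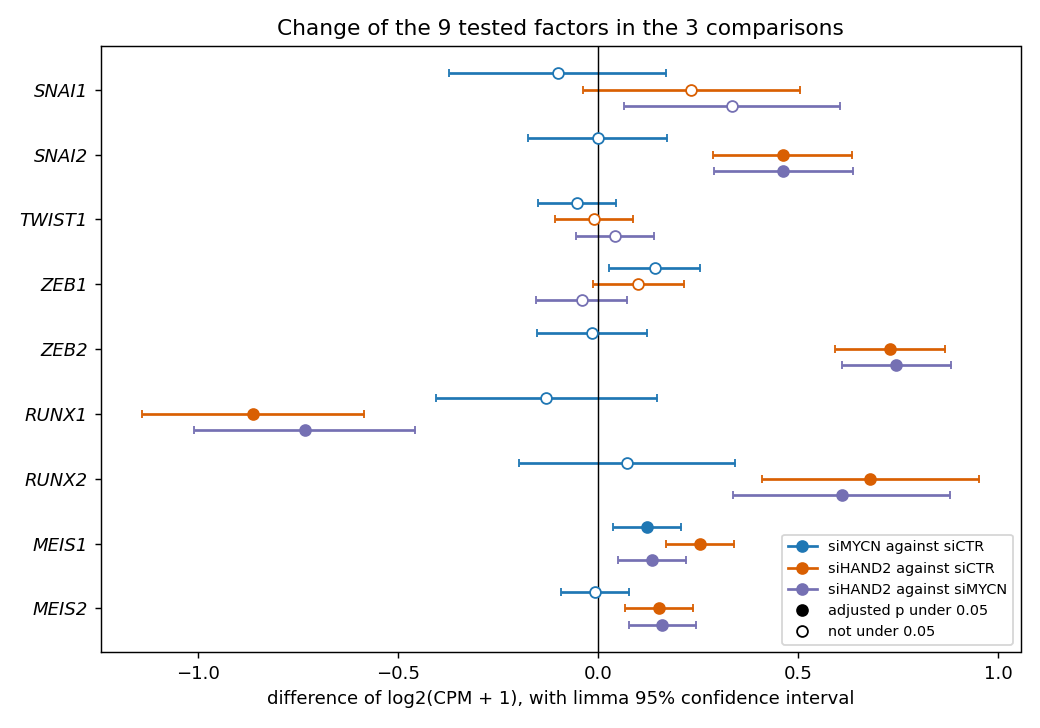
Differences of log2(CPM + 1) for the 9 tested factors with limma's 95% confidence intervals in the 3 comparisons, filled where the adjusted p was under 0.05. ZEB2, SNAI2 and RUNX2 lie right of 0 and RUNX1 left of 0 in both comparisons of siHAND2, and MEIS1 alone is filled in siMYCN.

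ZEB2 and ZEB1 are large zinc finger and homeodomain repressors that bind the same kind of E-box. ZEB2 (chromosome 2, 144364364 to 144521057, minus strand; GRCh38 positions as in the table) had 39.6, 36.2 and 39.0 CPM in replicates 1 to 3 of siCTR, 38.0, 34.2 and 41.5 with siMYCN and 66.8, 64.3 and 61.1 with siHAND2. The siHAND2 libraries all lay far above the other 6, which overlapped each other. With siHAND2, ZEB2 rose by 0.73 in log2 units (SE 0.065; limma adjusted p = 2.84e-07), a larger change in size than 97.8% of all tested genes. Against siMYCN the difference was 0.75 (adjusted p = 1.78e-07), and siMYCN differed from siCTR by -0.016 (95% interval -0.15 to 0.12, adjusted p = 0.88). ZEB2-AS1, an antisense gene that overlaps ZEB2, was near 0, at a mean of 0.0431 CPM in siCTR and 0.386 CPM in siHAND2. Strand use in the counting is not given in the sources used here, and these levels are small beside those of ZEB2. The ZEB2 interval in the table is longer than RefSeq's, 144384081 to 144520119, so it follows a longer gene model.

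ZEB1 (chromosome 10, 31318495 to 31529814, plus strand) had 142, 139 and 130.4 CPM with siCTR, 154, 141 and 159.9 with siMYCN and 143, 143 and 156 with siHAND2. Its lowest siHAND2 library (142.6 CPM) lay just above its highest siCTR library (142.1 CPM), but the difference of 0.10 on the log2 scale did not pass the test (95% interval -0.014 to 0.21, limma adjusted p = 0.175). In siMYCN the difference was 0.14 with an adjusted p of 0.0507, next to the threshold, and the groups overlapped. That p moved between 0.0144 and 0.254 over the alternative settings, so ZEB1 in siMYCN is reported as not called. The antisense gene ZEB1-AS1 measured 6.47 ± 0.222, 6.79 ± 0.630 and 6.58 ± 0.183 CPM in siCTR, siMYCN and siHAND2. Within a library the ratio of ZEB1 to ZEB2 CPM was 3.59 ± 0.249 in siCTR, 4.00 ± 0.131 in siMYCN and 2.30 ± 0.222 in siHAND2. All 3 siHAND2 ratios lay below those of the other 6 libraries, and of the pair ZEB2 was called there and ZEB1 was not.

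The sequence around the ZEB2 start is shown because ZEB2 had the firmest rise of the 10 and because helix-loop-helix factors such as HAND2 and MYCN bind E-boxes, which have the form CANNTG. RefSeq's GRCh38.p14 table of promoter windows (250 bases before a start to 50 after it, 300 in all) held 7 of the 10 factors, with 15 windows. The ZEB2 window at chr2:144520070-144520369 (minus strand) holds 1 E-box, CACATG, in capitals.
ZEB2: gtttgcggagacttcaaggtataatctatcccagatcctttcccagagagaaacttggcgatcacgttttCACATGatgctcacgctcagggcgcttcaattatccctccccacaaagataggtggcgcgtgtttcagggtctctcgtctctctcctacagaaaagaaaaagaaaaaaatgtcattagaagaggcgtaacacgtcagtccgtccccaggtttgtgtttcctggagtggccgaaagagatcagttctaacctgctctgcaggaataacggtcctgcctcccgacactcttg
The window holds no CACGTG, the E-box best known for MYC proteins. Among all 35116 RefSeq windows 68.7% hold a CANNTG, 14.7% a CATCTG (read on both strands, and itself a CANNTG) and 7.26% a CACGTG, so an E-box in a window is common.

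RUNX1 and RUNX2 share a DNA-binding domain; RUNX1 is best known from blood stem cells and sensory neurons, RUNX2 from bone. RUNX1 (chromosome 21, 34787801 to 36004667, minus strand) had 4.55, 5.20 and 3.23 CPM with siCTR, 3.58, 3.91 and 3.94 with siMYCN and 1.81, 2.23 and 1.67 with siHAND2. All 3 siHAND2 libraries lay below the other 6, and the siMYCN libraries fell inside the wide siCTR range. With siHAND2, RUNX1 fell by 0.86 in log2 units (SE 0.13; limma adjusted p = 0.000101) and by 0.73 against siMYCN (adjusted p = 0.00045). The difference of siMYCN from siCTR, -0.13, did not pass (95% interval -0.41 to 0.15, adjusted p = 0.473). The size of the RUNX1 fall in siHAND2 against siCTR followed the pseudocount, from -1.13 with 0.1 CPM added to -0.43 with 5 CPM added. The summed reads behind these values were about 356 in siCTR, 306 in siMYCN and 158 in siHAND2. The interval of the RUNX1 gene in the table is longer than RefSeq's, which ends at 35049302, so reads of a longer gene model may be included.

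RUNX2 (chromosome 6, 45328157 to 45664349, plus strand) moved the other way. It had 0.275, 0.374 and 0.332 CPM with siCTR, 0.403, 0.307 and 0.480 with siMYCN and 1.09, 1.23 and 1.06 with siHAND2. The siHAND2 libraries were all above the others, which overlapped, and the siHAND2 mean was 345% of the siCTR mean. With siHAND2, RUNX2 rose by 0.68 in log2(CPM + 1), and by 0.61 against siMYCN. Since the filter kept RUNX2 only through siHAND2, its p-values are taken from the fit with all genes kept, where the limma adjusted p was 4.75e-05 against siCTR and 0.000132 against siMYCN. These are smaller than in the filtered fit (0.000743 and 0.00188), so the fit with all genes is not the more cautious. Against siCTR its 95% interval was 0.50 to 0.86, and 0.41 to 0.95 in the filtered fit. The summed reads were about 26 in siCTR, 32 in siMYCN and 94 in siHAND2, so the rise rests on few reads, and its size followed the pseudocount, from 0.20 with 5 CPM added to 1.53 with 0.1 CPM added. SUPT3H, a gene on the opposite strand that overlaps RUNX2, measured 13.7 ± 0.698 CPM in siCTR and 13.8 ± 0.906 CPM in siHAND2. AL096865.1, also on that strand and overlapping RUNX2, was near 0, at 0.0103 ± 0.0176 CPM in siCTR and 0.143 ± 0.0304 CPM in siHAND2. The RUNX2 interval in the table is longer than RefSeq's, which ends at 45551082, so reads of a longer gene model may be included here too. The ratio of RUNX1 to RUNX2 CPM went from 13.4 ± 3.45 in siCTR and 9.95 ± 2.44 in siMYCN to 1.68 ± 0.120 in siHAND2, with every siHAND2 library below every other. The ratios themselves were not tested.

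**Figure D4:**
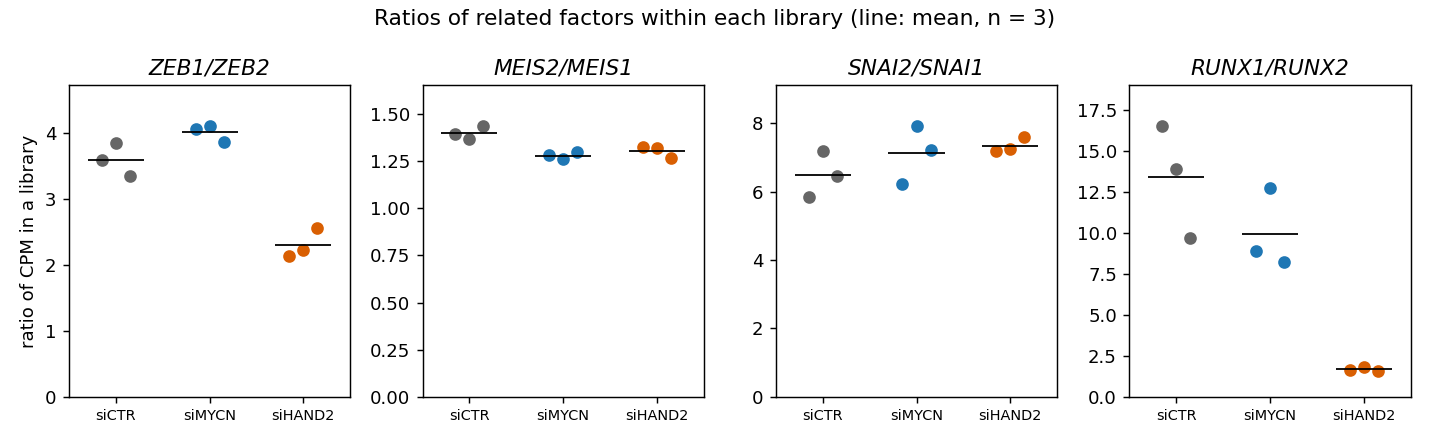
Ratio of the CPM of related factors within each library, on linear axes from 0, with 1 point per library and the group mean (n = 3) as a line. The ratios ZEB1/ZEB2 and RUNX1/RUNX2 are lowest in all 3 siHAND2 libraries, and SNAI2/SNAI1 overlaps between the groups.

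The RUNX windows are shown since this pair moved in opposite directions. RefSeq gives RUNX2 a distal and a proximal start, at chr6:45328080-45328379 and chr6:45422025-45422324 (plus strand), and the RUNX1 window lies at chr21:34888650-34888949 (minus strand). E-boxes are in capitals.
RUNX2 distal: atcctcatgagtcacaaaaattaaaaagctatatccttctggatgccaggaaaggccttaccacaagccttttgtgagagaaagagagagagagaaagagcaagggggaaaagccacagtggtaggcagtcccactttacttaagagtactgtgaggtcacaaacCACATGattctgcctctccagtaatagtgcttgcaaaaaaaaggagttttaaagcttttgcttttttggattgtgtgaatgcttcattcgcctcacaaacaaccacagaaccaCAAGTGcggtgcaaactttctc
RUNX2 proximal: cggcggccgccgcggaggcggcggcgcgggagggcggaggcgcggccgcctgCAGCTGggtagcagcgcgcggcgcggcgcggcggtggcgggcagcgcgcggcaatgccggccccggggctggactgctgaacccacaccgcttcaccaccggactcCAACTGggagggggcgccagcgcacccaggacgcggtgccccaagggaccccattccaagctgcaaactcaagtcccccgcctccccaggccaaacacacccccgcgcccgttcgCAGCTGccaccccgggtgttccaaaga
RUNX1: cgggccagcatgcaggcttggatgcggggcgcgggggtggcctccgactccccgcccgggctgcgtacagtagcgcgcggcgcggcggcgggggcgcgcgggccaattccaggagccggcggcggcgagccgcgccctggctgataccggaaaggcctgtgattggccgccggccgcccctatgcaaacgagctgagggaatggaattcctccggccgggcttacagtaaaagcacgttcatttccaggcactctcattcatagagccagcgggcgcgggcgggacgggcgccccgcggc
The distal RUNX2 window held 2 E-boxes and the proximal one 3. The first E-box of the distal window, CACATG, has the same letters as the one in the ZEB2 window. A ZEB1 window holds CATGTG, the same word read on the other strand, and ZEB1 was not called in siHAND2. The share of all RefSeq windows with this word was not computed. The RUNX1 window held no E-box. That window lies inside RefSeq's RUNX1 gene, which on the minus strand reaches to 35049302. The sequence at that far end was not among the windows and was not searched. Over the 15 windows of the 7 matched factors, an E-box of any form stood in 7 windows of 3 factors, ZEB1, ZEB2 and RUNX2. The form CATCTG occurred in 1 window, which belongs to ZEB1, and the MYC form described above occurred in 0 of the 15. The promoter word CCAAT, searched on both strands, stood in 4 of these windows, the RUNX1 window among them, and in 34.6% of all RefSeq windows. The word TATAAA stood in 0 of the 15 and in 11.5% of all windows. MEIS1 and MEIS2, which also rose in siHAND2, had no E-box in their windows. For SNAI2, called higher there too, no window was searched. The table gives gene-level values, so which RUNX2 start gave the reads cannot be told apart.

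SNAI2 and SNAI1 encode the repressors Slug and Snail, with SNAI2 the factor of the migrating neural crest. SNAI2 (chromosome 8, 48917598 to 48921740, minus strand) had 21.8, 19.4 and 25.4 CPM with siCTR, 23.6, 20.7 and 22.0 with siMYCN and 30.7, 32.7 and 29.1 with siHAND2. The siHAND2 libraries lay above all 6 others. SNAI2 rose by 0.46 in siHAND2 (SE 0.082, limma, adjusted p = 0.000475) and by 0.46 against siMYCN (adjusted p = 0.000449), and differed by -0.0017 in siMYCN (95% interval -0.18 to 0.17, adjusted p = 0.99). SNAI1 (chromosome 20, 49982980 to 49988886, plus strand) had 3.73, 2.70 and 3.94 CPM with siCTR, 3.79, 2.61 and 3.05 with siMYCN and 4.28, 4.50 and 3.83 with siHAND2. Its siHAND2 libraries overlapped siCTR and lay above siMYCN. The SNAI1 differences were 0.23 in siHAND2 (95% interval -0.038 to 0.50, limma adjusted p = 0.186), -0.10 in siMYCN (-0.37 to 0.17, adjusted p = 0.576) and 0.33 between the knockdowns (0.063 to 0.60, adjusted p = 0.0642), and none was called. About 277, 251 and 351 reads in siCTR, siMYCN and siHAND2 stood behind SNAI1, and its interval in siHAND2 includes the change seen for SNAI2. The ratio of SNAI2 to SNAI1 overlapped between the groups, at 6.50 ± 0.672, 7.12 ± 0.855 and 7.34 ± 0.221 in siCTR, siMYCN and siHAND2.

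MEIS1 and MEIS2 are the most abundant of the 10 by reads, and their changes were the smallest that were called. MEIS1 (chromosome 2, 66433452 to 66573869, plus strand) had 207, 196 and 191 CPM with siCTR, 218, 214 and 214 with siMYCN and 236, 234 and 239 with siHAND2. The groups did not overlap and stood in the order siCTR, siMYCN, siHAND2. MEIS1 rose by 0.26 in siHAND2 (SE 0.040, limma, adjusted p = 0.000142), by 0.12 in siMYCN (adjusted p = 0.0259) and by 0.13 from siMYCN to siHAND2 (adjusted p = 0.0199). The siMYCN call was lost under the median-ratio (0.064) and quantile (0.054) scalings, with no intensity trend, and without siCTR replicate 2 (0.11), siCTR replicate 3 (0.095), siMYCN replicate 1 (0.11) or siMYCN replicate 3 (0.12). The call between the knockdowns was lost with no intensity trend (0.13) and without siMYCN replicate 2 (0.13) or siMYCN replicate 3 (0.13). The antisense gene MEIS1-AS2 went from 4.21 ± 0.729 CPM in siCTR to 4.28 ± 0.270 in siMYCN and 5.72 ± 0.902 in siHAND2, a change of 0.37 in siHAND2 (adjusted p = 0.0261) that was lost without siCTR replicate 1 (0.25) or siHAND2 replicate 2 (0.27) , under quantile scaling (0.30) and with all genes kept (0.37, adjusted p = 0.0716).

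MEIS2 (chromosome 15, 36889204 to 37101299, minus strand) had 288, 268 and 274 CPM with siCTR, 279, 269 and 278 with siMYCN and 312, 309 and 302 with siHAND2. Its siHAND2 libraries were above all others, while siCTR and siMYCN overlapped. MEIS2 rose by 0.15 in siHAND2 (SE 0.040, limma, adjusted p = 0.00842) and by 0.16 against siMYCN (adjusted p = 0.00657), and the siMYCN difference was -0.0078 (95% interval -0.092 to 0.077, adjusted p = 0.904). Without siCTR replicate 2 the siHAND2 value was 0.13 and no longer called. The ratio of MEIS2 to MEIS1 was 1.40 ± 0.0357 in siCTR, 1.28 ± 0.0184 in siMYCN and 1.30 ± 0.0324 in siHAND2, so it was lower in both knockdowns than in any siCTR library.

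TWIST1 was the highest of the 10 per length, and PRRX1 was among the lowest. TWIST1 (chromosome 7, 19020991 to 19117636, minus strand) had 125, 124 and 118 CPM with siCTR, 123, 116 and 114 with siMYCN and 126, 123 and 116 with siHAND2, and all groups overlapped. It differed by -0.010 in siHAND2 (95% interval -0.11 to 0.087, limma adjusted p = 0.89) and by -0.052 in siMYCN (-0.15 to 0.045, adjusted p = 0.406). The intervals reach 0.087 above and -0.15 below no change. AC003986.2, a gene on the opposite strand that overlaps TWIST1, measured 12.05 ± 0.0588 CPM in siCTR and 14.6 ± 1.82 CPM in siHAND2. The TWIST1 interval of the table begins at a lower coordinate than RefSeq's (19113047), so it follows a longer gene model.

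PRRX1 (chromosome 1, 170662728 to 170739421, plus strand), a core factor of mesenchymal neuroblastoma cells, was below 1 CPM in all 9 libraries and was not tested. It had 0.673, 0.824 and 0.617 CPM with siCTR, 0.483, 0.422 and 0.240 with siMYCN and 0.428, 0.558 and 0.496 with siHAND2, from about 57, 30 and 41 summed reads. Both knockdown groups lay below all siCTR libraries, as did 16.1% of tested genes in siMYCN and 16.6% in siHAND2. With no filter on low values, limma gave -0.31 in siMYCN (adjusted p = 0.0282) and -0.19 in siHAND2 (95% interval -0.38 to 0.0040, adjusted p = 0.186). A rise of PRRX1 was not seen in either knockdown at this depth.

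Genes that work with the 10 factors were read from lists chosen for this purpose. Of 7 family relatives, 4 could be tested, and MEIS3, PRRX2 and SCRT1 were higher in siHAND2, beside 18.1% of all genes tested. MEIS3, the third MEIS factor, rose from 57.4 ± 0.910 CPM in siCTR to 91.8 ± 8.02 CPM in siHAND2 (0.66 on the log2 scale, limma adjusted p = 2.98e-07) and to 76.5 ± 4.15 CPM in siMYCN (0.41, adjusted p = 6.36e-05). PRRX2, the close relative of PRRX1, rose from 7.46 ± 0.488 to 13.2 ± 1.64 CPM in siHAND2 (0.74, adjusted p = 3.57e-05) and had 6.26 ± 0.853 CPM in siMYCN (-0.22, adjusted p = 0.0952). SCRT1, a neural zinc finger factor related to SNAI1, rose by 0.30 in siHAND2 (adjusted p = 0.0101), a call lost without siHAND2 replicate 2 (0.24). The median of the 4 in siHAND2 was 0.48, beside 0.039 over all tested genes.

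Of 18 partners and corepressors, 17 could be tested, and in siHAND2 4 rose, a share of 23.5% near the 18.1% of all genes tested, with a median of 0.065 beside 0.039 over all genes. RUNX1T1, a corepressor known as the fusion partner of RUNX1 in leukaemia, rose from 17.2 ± 0.360 to 27.8 ± 0.960 CPM in siHAND2 (0.66, limma adjusted p = 3.13e-07). CBFB, the common subunit of the RUNX proteins, rose from 76.6 ± 2.65 to 95.4 ± 2.77 CPM (0.31, adjusted p = 4.33e-05). PBX2, a DNA-binding partner of the MEIS proteins named after its value was seen, rose as well (0.23, adjusted p = 0.00374). In siMYCN 6 rose (35.3%, beside 24.5% of all genes tested) and 1 fell (5.88%, beside 11.4%), led by the corepressor CBFA2T2, from 58.2 ± 3.62 to 81.6 ± 4.86 CPM (0.48, adjusted p = 6.42e-06). RUNX1T1 (0.32, adjusted p = 0.00047) and CBFB (0.20, adjusted p = 0.00219) rose there as well. The gene that fell, KDM1A, was named after its value was seen (-0.15, adjusted p = 0.00832). After either rescaling the siMYCN counts were 4 higher and 2 lower.

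Other transcription regulators linked to the mesenchymal state moved in both directions. Of 32 listed, 22 could be tested, and in siHAND2 6 were higher (27.3%, beside 18.1% of all genes tested) and 4 lower (18.2%, beside 11.8%), with a median of 0.052 beside 0.039 over all genes. The receptor NOTCH2 rose from 83.9 ± 4.32 to 165 ± 8.42 CPM (0.97, limma adjusted p = 2.30e-09), its coactivator MAML2 from 16.2 ± 0.174 to 28.3 ± 1.03 CPM (0.77, adjusted p = 4.68e-08) and the glucocorticoid receptor NR3C1 from 5.16 ± 0.172 to 10.5 ± 1.24 CPM (0.90, adjusted p = 1.65e-06). The 4 that fell, named after their values were seen, were MAFF (-0.39), FLI1 (-0.25), TBX18 (-0.33) and TEAD4 (-0.25). The TBX18 call was lost in 5 of 18 alternative settings. Among them were the fits without siCTR replicate 1 (-0.27), siCTR replicate 2 (-0.32), siHAND2 replicate 1 (-0.27) or siHAND2 replicate 2 (-0.33). TEAD4 lost its call in 9 of 18. In 7 of these a library was dropped, either siMYCN replicate 2 or any replicate of siCTR or siHAND2 (-0.29 to -0.19). In siMYCN 5 were higher and 2 lower, shares of 22.7% and 9.09% near the 24.5% and 11.4% of all genes tested, with MAML2 higher (0.55, adjusted p = 2.57e-06), the homeobox gene SIX4 lower (-0.67, from 13.3 ± 0.397 to 8.03 ± 1.28 CPM, adjusted p = 8.93e-05) and AEBP1 higher (0.27, adjusted p = 0.00309). The other gene that fell, TCF7L2 (-0.42), was named after its value was seen and lost its call without siCTR replicate 1 (-0.37), siMYCN replicate 1 (-0.39) or siMYCN replicate 3 (-0.35). These siMYCN counts turned to 4 higher and 5 lower under the median-ratio scaling and to 3 higher and 5 lower under the quantile scaling, which gave 5 and 5 in siHAND2.

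**Figure D5:**
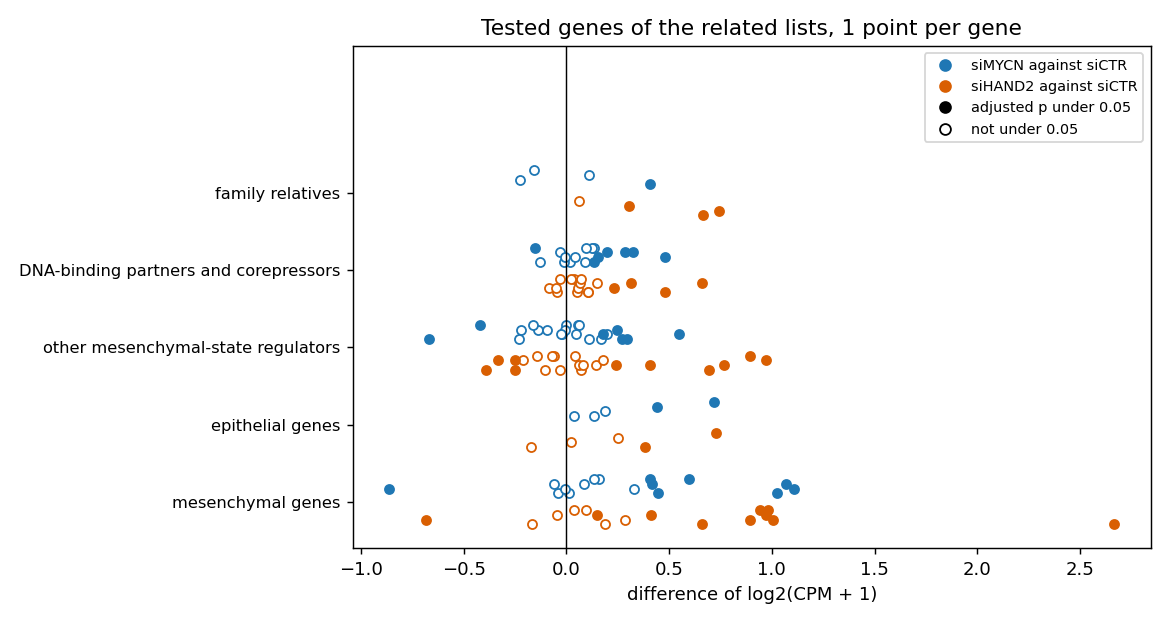
Differences of log2(CPM + 1) from siCTR for each tested gene of 5 related lists, with siMYCN in blue and siHAND2 in orange, filled where the adjusted p was under 0.05. The mesenchymal genes reach furthest, with COL1A2 at 2.67 in siHAND2, and the other regulators lie on both sides of 0.

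Genes that such factors are known to repress or induce were read last. Of 30 epithelial genes, 20 were in the table and 5 could be tested, so the list says little about repression in this line. JUP, a catenin of cell junctions, rose from 28.8 ± 1.42 CPM to 48.4 CPM in siHAND2 (0.73, limma adjusted p = 1.24e-07) and to 47.9 CPM in siMYCN (0.72, adjusted p = 2.52e-07). OCLN, a tight junction gene, was higher in siHAND2 (0.38, adjusted p = 0.020). That call was lost in 5 of the 17 alternative settings in which OCLN was tested. Among them were the fits without siCTR replicate 1 (0.32), siCTR replicate 2 (0.36), siHAND2 replicate 2 (0.35) or siHAND2 replicate 3 (0.33). GRHL1, an epithelial transcription factor, was higher in siMYCN (0.44, adjusted p = 0.0101), at 1.40 ± 0.268 CPM in siCTR. None of the 5 fell in either knockdown by this test, beside 11.8% of all genes in siHAND2 and 11.4% in siMYCN. Of these 5, 0 were lower at an unadjusted p under 0.05 as well.

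Of 31 mesenchymal genes, 16 could be tested. In siHAND2 9 rose (56.2%, beside 18.1% of all genes tested) and 1 fell (6.25%, beside 11.8%), with a median of 0.35 beside 0.039 over all genes. In siMYCN 7 rose (43.8%, beside 24.5%) and 1 fell (6.25%, beside 11.4%), with a median of 0.24 beside 0.060. COL1A2 went from 1.66 ± 0.138 to 15.9 ± 2.10 CPM in siHAND2 (2.67, limma adjusted p = 1.26e-11), the filament gene VIM from 525 ± 25.4 to 1011 ± 60.2 CPM (0.94, adjusted p = 4.76e-10) and the receptor gene PDGFRB from 89.8 ± 3.07 to 179 ± 17.3 CPM (0.98, adjusted p = 3.84e-09). In siMYCN the matrix gene TNC rose from 142 ± 7.95 to 298 ± 9.77 CPM (1.07, adjusted p = 1.31e-08), N-cadherin's gene CDH2 from 186 ± 10.1 to 282 ± 6.36 CPM (0.60, adjusted p = 1.30e-07) and COL1A2 to 4.42 ± 0.273 CPM (1.03, adjusted p = 1.14e-06). LOX, named after its value was seen, was the gene that fell in both, by 0.68 in siHAND2 and by 0.86 in siMYCN. COL1A2 and PDGFRB also stand in the fibroblast marker list, and some of these genes were known from earlier results to rise, so the counts are no independent evidence of a direction.

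The pattern over the 9 libraries was compared between the 3 factors with the largest changes and the 11195 other genes averaging 5 CPM or more, by the Pearson correlation of log2(CPM + 1). It is a description, since the 9 libraries are 3 groups and any gene that moves in siHAND2 alone scores high. SLITRK4 (r = 0.996), NOTCH2 (0.990) and ISOC1 (0.987) were most like ZEB2. SRRM4 (0.992), BTBD3 (0.983) and EBF1 (0.983) were most like RUNX2. RAB3A (0.975), HS3ST3A1 (0.959) and TMEM158 (0.958) were most like RUNX1. SLITRK4, for example, had means of 7.17, 6.94 and 19.9 CPM in siCTR, siMYCN and siHAND2, and HS3ST3A1 had 8.26, 7.03 and 2.79 CPM.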

How the data were processed

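RNA-seq of 9 LAN5 libraries was used. The authors deposited 1 table of CPM, counts per library total, scaled, with a constant of 0.0001 in each value. The tools STAR 2.5.1 and Partek and the builds hg19 and GRCh37 are listed, with no roles, per the submitters' processing notes; counting rules and strand use are not given in the sources used here. Gene starts in the table lay within 5000 bp of GRCh38 starts for 91.4% of 18215 symbols and of GRCh37 starts for 5.56% of 18111, so positions are given as GRCh38, 1-based, with ends 1 below the listed stops. Depth was read from the step between low values. Of values up to 20 steps, 80.0% to 81.3% were whole within 0.02 of a step, under the 95% set for count tests, so no count model was used; counting error at low values covers reads, not molecules.

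Genes that reached 1 CPM in 3 or more of the 9 libraries (14495; 10589 left out) were fitted as log2(CPM + 1) with limma 3.58.1 in R 4.3.3, 1 mean per group over all libraries and an intensity trend. Tests were two-sided with Benjamini-Hochberg adjustment over all genes tested. The model was tested on simulated data for siMYCN against siCTR. It recovered 85%, 99.5% and 100% of genes changed by 0.5, 1 and 2 on the log2 scale. Of its calls at an adjusted p under 0.05, 4.49%, 8.72% and 7.83% were false. Exon lengths came from GENCODE on GRCh37, by symbol, and sequences from RefSeq. No 2 replicates agreed within counting noise (chi-square per degree of freedom 3.55 to 12.4).

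The 10 factors and the lists were chosen with earlier results of these data known. All 10 are named; of each list up to 3 genes with the smallest p in each comparison against siCTR are named, and others are marked. A withheld item is not reported here. Alternatives were pseudocounts of 0.1 and 5, no filter, a filter of 5 CPM, 2 rescalings, fits of 2 groups, no trend, a replicate block and leaving out each library; for genes of the lists they were added after seeing the data.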

Additional observations from a re-analysis of the deposited data

How the results depend on the processing

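The counts of genes called stayed within 1.5 times the reported count under all 18 alternatives in each comparison. The same held for the 6 factors called in siHAND2 against siCTR (4 to 6) and in siHAND2 against siMYCN (4 to 7); RUNX1 and RUNX2 are not tested with a filter of 5 CPM, and RUNX2 is not tested without any 1 siHAND2 library. In siMYCN against siCTR the count of called factors was 1 and moved to 0 after median-ratio rescaling, quantile normalization and with no intensity trend. It moved to 2 with all genes kept, with a filter of 5 CPM, a fit of 2 groups and the replicate block, and ran from 0 to 2 when 1 library was left out; the second gene was PRRX1 with all genes kept and ZEB1 (0.14 to 0.19) elsewhere. Changes of direction came only from leaving out 1 library and only among values not called: in siMYCN SNAI2 (-0.091 to 0.095), ZEB2 (-0.081 to 0.054) and MEIS2 (-0.031 to 0.022), and in siHAND2 TWIST1 (-0.035 to 0.025). SNAI1 between the knockdowns was called without siMYCN replicate 1 (0.44) or siCTR replicate 2 (0.33). Libraries were not treated as paired by replicate number, since no label ties the numbers and the deviations of same-numbered libraries correlated at over 0.1 in 6 of 9 pairs, not in all (-0.040 to 0.31); 15 of 18 best matches were with the library's own number, a hint of pairing from the data. With the replicate block 5895 genes were called in siMYCN, 5089 in siHAND2 and 4689 between the knockdowns, with 2, 6 and 7 factors; the block added the calls of ZEB1 in siMYCN and SNAI1 between the knockdowns (adjusted p = 0.0338). Rescaling moved the median change of all genes by at most 0.060 on the log2 scale. About 7 to 33 reads a library stood behind PRRX1 and RUNX2, which limits both.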
